A study of Mus musculus with 6 samples.

Results

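The genes described here are 35 listed genes of fatty acid uptake, activation and mitochondrial oxidation, with the regulators and targets of the peroxisome proliferator-activated receptor (PPAR) pathway that govern them. They were chosen by name, with earlier results of these data known, so their counts beside those of all genes are descriptions and no tests. A gene was followed through a probe set annotated to its symbol alone. Such a probe set was present for 33 of the 35 genes, out of 19938 genes in all. Acsl1, which encodes the main long-chain acyl-CoA synthetase of heart, has none. Cpt1b, which encodes the muscle form of carnitine palmitoyltransferase, shares its probe set with Gm44502, so no value is given for either gene.

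The heart draws most of its ATP from long-chain fatty acids. Lipoprotein lipase frees them from circulating triglyceride, CD36 and fatty acid transport proteins carry them into the cardiomyocyte, and acyl-CoA synthetases activate them. The carnitine shuttle brings acyl-CoA into mitochondria, where the beta-oxidation spiral shortens it and passes electrons through the electron-transferring flavoprotein (ETF) to the respiratory chain. PPAR alpha, its coactivator PGC-1 alpha and the estrogen-related receptor alpha drive transcription of many of these enzymes. PPAR alpha binds DNA with RXR at direct repeats of AGGTCA spaced by a single base, a layout called DR1.

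RNA was measured in 6 heart samples of mice aged 6 months (postnatal day 180), each on 1 Affymetrix Mouse Gene 1.0 ST array, from 300 ng of total RNA. Id1 and Id3 encode inhibitors of basic helix-loop-helix transcription factors. The first set of 4 arrays held a wild-type heart (WT), a pair of hearts labelled Id control and an Id conditional knockout heart (Id cKO). Id control 1 had the genotype Id1F/+Id3-/- with no Cre named, Id control 2 was Tie2Cre+Id1-/-Id3+/-, and Id cKO was Tie2Cre+Id1F/-Id3-/-. F denotes a floxed allele, and Tie2Cre is a Cre driver of endothelial and blood cells, so Id1 in cardiomyocytes is not its target. The other 2 arrays held Id cKO hearts incubated with recombinant mouse IGFBP3, an insulin-like growth factor binding protein, or incubated without it (control-incubated). Their alleles were not spelled out further. The labels and design text do not state the strain, the number of animals behind an array, or the dose and length of the incubation. The series' design text set Id cKO and Id control against WT, and the IGFBP3-incubated against the control-incubated Id cKO heart. Only the Id control group had more than 1 array, and those were of different genotypes. The p-values thus rest on the spread of that pair, with each gene's spread drawn toward that of all genes.

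Several facts of the arrays touch every comparison. Id3 stood at 7.18 (log2 level as deposited) in WT and 7.32 in Id control 2, against 5.02 in Id control 1 and 4.69 in Id cKO, and Id1 was lower in Id control 2 (6.41) and Id cKO (6.48) than in WT (8.14) and Id control 1 (8.10). WT and both incubated hearts showed a male pattern of sex-linked transcripts (Eif2s3y at 7.98, 7.07 and 6.20) and the other 3 hearts a female one (2.73 to 3.03). Sex and genotype thus cannot be told apart in Id cKO against WT or in Id control against WT. The date codes of the labels place WT, Id control 2 and Id cKO together, Id control 1 apart, and the incubated pair apart again; what they date is not stated. The incubated pair sat on a lower scale, with array medians of 4.45 and 4.51 against 5.73 to 5.83, so it was set against the first set only after quantile normalization. All 14 cardiomyocyte markers were above the floor of 6 on every first-set array, with mean levels of 12.94 to 13.09. The heart label of those arrays thus had its defining markers. Id control 2 also carried an atrial signal, with Myl7 at 12.27 against 5.28 to 5.38 on the other first-set arrays, and more fat-cell transcript, with Adipoq at 6.53 against 4.02 to 4.38. In whole-heart RNA, fewer cells of a type and less RNA per cell cannot be told apart.

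Promoter sequence is shown first for 3 members that the results turn on. Ucp3 had the largest member difference between Id cKO and WT as deposited and a DR1-like match, Etfa is the electron-transfer member past 1.5-fold with such a match, and Acot1 was low in Id cKO with no such match. Each run is the 250 bases before the transcript start in RefSeq's GRCm38.p6 models, on the gene's own strand, 5′ to 3′, with the match in capitals. Ucp3 lies at chr7:100472741-100472990 (plus strand), Etfa at chr9:55512244-55512493 (minus strand) and Acot1 at chr12:84009252-84009501 (plus strand).
Ucp3: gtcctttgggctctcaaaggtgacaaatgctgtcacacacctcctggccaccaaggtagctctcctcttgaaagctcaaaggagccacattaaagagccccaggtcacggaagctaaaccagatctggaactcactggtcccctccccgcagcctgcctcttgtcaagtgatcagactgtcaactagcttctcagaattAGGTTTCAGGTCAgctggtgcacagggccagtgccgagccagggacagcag
Etfa: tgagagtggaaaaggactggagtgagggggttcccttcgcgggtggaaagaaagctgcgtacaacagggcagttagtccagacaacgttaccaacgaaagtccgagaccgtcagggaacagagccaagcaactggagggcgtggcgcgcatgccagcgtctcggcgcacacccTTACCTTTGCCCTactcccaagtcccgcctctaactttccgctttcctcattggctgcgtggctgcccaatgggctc
Acot1: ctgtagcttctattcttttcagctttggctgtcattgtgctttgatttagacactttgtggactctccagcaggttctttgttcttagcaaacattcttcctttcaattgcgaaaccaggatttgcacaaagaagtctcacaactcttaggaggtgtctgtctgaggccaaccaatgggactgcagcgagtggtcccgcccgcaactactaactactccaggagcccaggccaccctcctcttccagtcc

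The Ucp3 match ran from base -51 to base -39 before the start, and the Etfa match, read on the opposite strand, from -77 to -65. Both differ from AGGTCANAGGTCA at 2 of its 12 fixed bases. RefSeq windows (250 bases before to 50 after the start) were on hand for 28 of the 35 members, 33 windows in all. With up to 2 mismatches on either strand, 4 of the 33 windows (12.1%) held a DR1, those of Ucp3, Etfa, Cd36 and Slc25a20, against 3.86% of 32851 windows of the same length. With up to 1 mismatch the members had 0 and all windows 0.554%. The core AGGTCA alone was in 7 member windows (21.2%) and in 16.3% of all windows, and a DR1 match with an exact copy, as in Ucp3, counts there too. These are matches of letters, and no binding was measured.

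Most of the fatty acid genes were lower in the Id cKO heart than in the WT heart, by small amounts that did not pass limma's adjusted test. Of the 33 members, 31 were below WT, where 49.2% of the 11478 genes compared were lower by any amount. Angptl4 and Cpt1a, the other 2, were 0.06 above it (50.8% of genes compared were higher). At least 1.5-fold lower were 8 members, against 3.35% of genes compared, and 0 were as much higher, against 6.94%. At least 2-fold lower were 2, Ucp3 and Ppargc1a, against 0.967%. The median member difference (Id cKO minus WT) was -0.37 on the log2 scale, and that of all genes compared 0.00. In limma with Benjamini-Hochberg adjustment over the genes compared, 0 members passed 0.05 in either direction. Among all genes compared 0.0174% passed lower and 0.0174% higher. At an unadjusted p under 0.05 there were 10 members lower, against 4.92% of genes compared, and 0 higher, against 8.22%. The 8 members at least 1.5-fold lower were Ucp3, Ppargc1a, Pdk4, Acot1, Ppara, Acaa2, Acot2 and Etfa.

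Against the Id control pair, most members were again lower in the Id cKO heart. The Id cKO level was below both Id control arrays for 28 of 33 members, against 41.9% of 11310 genes compared, and above both for 1, Angptl4, against 33.5%. At least 1.5-fold below both arrays were 5 members (2.37% of genes compared): Acot1, Acot2, Acaa2, Slc25a20 and Ucp3. As much above both were 0, against 2.63%. The median difference from the Id control mean was -0.38, and -0.03 over all genes compared. In limma 0 members passed the adjusted test (0 genes passed it lower and 0.0177% higher). At an unadjusted p under 0.05, 12 members were lower, against 7.38% of genes compared, and 0 higher, against 6.08%. This comparison and the one with WT share the Id cKO array, so they are not independent. With 1 Id control array alone, 8 members were at least 1.5-fold lower, whichever was kept, against 4.45% of genes with Id control 1 and 5.91% with Id control 2. As much higher were 2 with Id control 1, Pdk4 and Angptl4 (4.66%), and 0 with Id control 2 (4.13%). Kept alone, Id control 2 added Ppara, Ppargc1a and Pdk4 to those 5, and Id control 1 added Slc27a1, Hadh and Decr1. Pdk4 turned with the array kept, at -1.24 from Id control 2 and 0.82 from Id control 1.

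Over the 4 arrays of the first set, Id cKO was the lowest for 27 of 33 members, against 31.1% of 11708 genes. Id control 1 was lowest for 5 (16.1% of genes), WT for 1 (31.7%) and Id control 2 for 0 (21.2%). For 19 members the Id cKO level was below the lowest of WT and both Id control arrays by more than the whole range of those 3, against 10.6% of genes. For 0 members did it exceed the highest by as much, against 9.15%. Id cKO was at least 1.5-fold below each of the other 3 arrays for 4 members, Ucp3, Acot1, Acaa2 and Acot2, against 1.38% of genes.

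**Figure D1:**
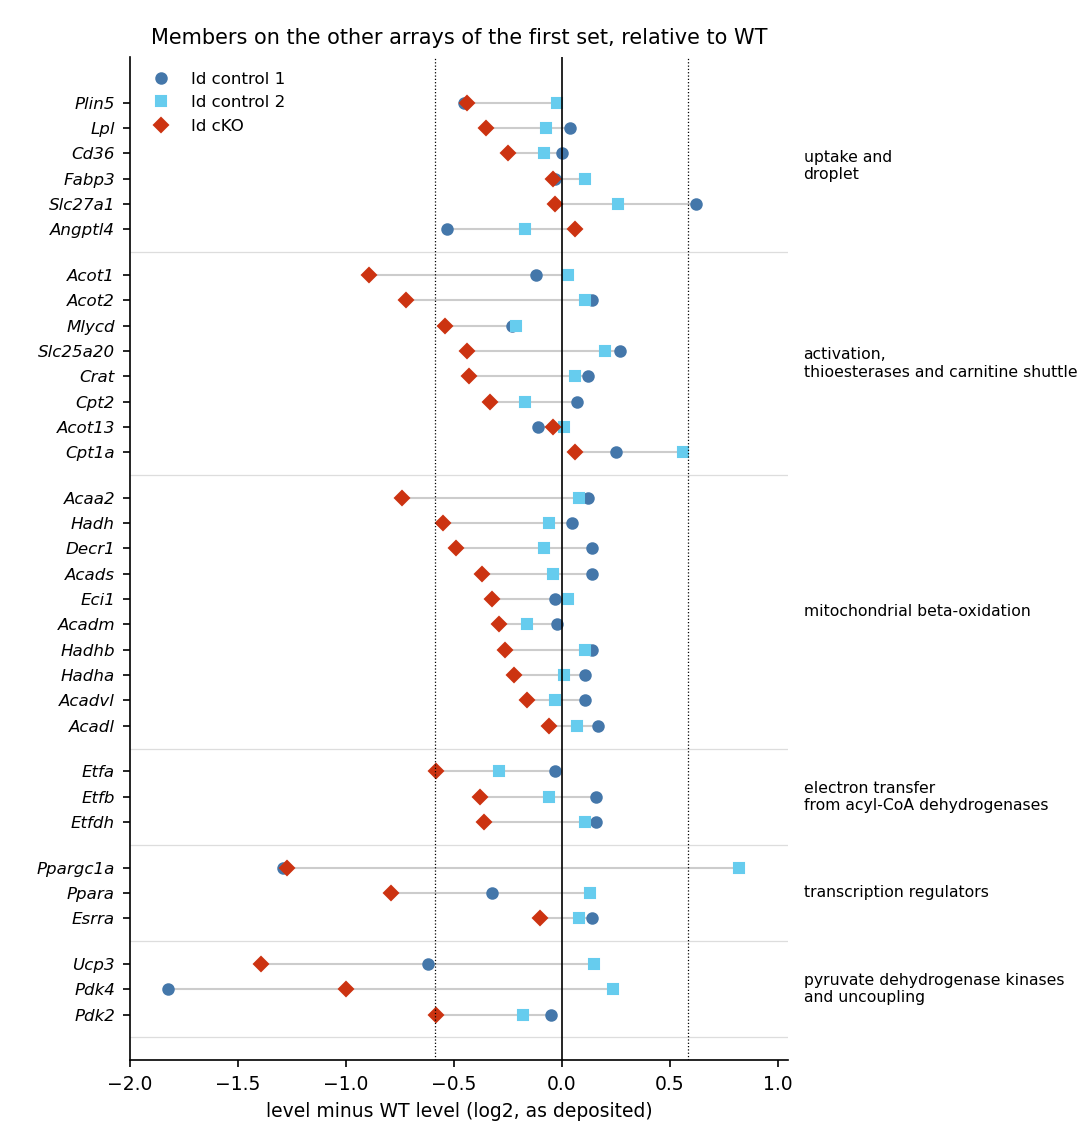
The 33 members by role, each as the log2 level on Id control 1 (circle), Id control 2 (square) and Id cKO (diamond) minus the WT level; dotted lines mark 1.5-fold. The Id cKO point is the leftmost for most members, while Pdk4, Ppargc1a and Ucp3 also have an Id control 1 point well below WT.

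The uptake and droplet genes differed least. Their median was -0.15 against WT, with 5 of 6 lower and 0 past 1.5-fold. The direction depended on the scale: 3 were lower and 3 higher with arrays centred on their medians (median -0.08) or on the cardiomyocyte markers (median -0.09). Cd36, the fatty acid translocase, read 12.51 in WT, 12.51 and 12.43 in the Id control hearts and 12.26 in Id cKO. Cd36 is also made by capillary endothelium, and endothelial markers were higher in Id cKO, as given further on. Lpl, the lipase that releases fatty acids from lipoproteins, read 13.08, 13.12, 13.01 and 12.73 in the same order. Both were thus lowest in Id cKO by less than 1.5-fold.

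Fabp3, the heart's cytosolic fatty acid binding protein, had its 4 levels close together, with 13.21 in WT, 13.18 and 13.32 in Id control and 13.17 in Id cKO. Slc27a1, a fatty acid transport protein, read 9.55 in WT, 10.17 and 9.81 in Id control and 9.52 in Id cKO. Id control 1 was the high array for Slc27a1, and WT and Id cKO were close together. Plin5, which coats lipid droplets at mitochondria, was as low in Id control 1 (8.76) as in Id cKO (8.77), against 9.21 in WT and 9.19 in Id control 2. Angptl4, a PPAR target that inhibits lipoprotein lipase, went the other way: 6.65 in Id cKO and 6.59 in WT, against 6.06 and 6.42 in Id control.

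Among the 8 genes of activation, thioesterases and the carnitine shuttle, 7 were below WT, with a median of -0.43. Acot1 and Acot2, thioesterases that hydrolyse acyl-CoA to free fatty acid, differed most. Acot1, the cytosolic enzyme, read 7.58 in WT, 7.46 and 7.61 in Id control, and 6.69 in Id cKO. The WT and Id control levels lay within 0.16 of each other, and Id cKO was 0.77 below the lowest of them. The difference from WT was -0.90 (limma SE 0.18, adjusted p = 0.202), and from the Id control mean -0.85 (limma SE 0.15, adjusted p = 0.228).

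Acot2, the mitochondrial paralog, read 10.41 in WT, 10.55 and 10.52 in Id control, and 9.69 in Id cKO. Its difference from WT was -0.72 (limma SE 0.16, adjusted p = 0.225) and from Id control -0.84 (limma SE 0.14, adjusted p = 0.217). Acot1 and Acot2 are near-identical in sequence, so how far their probe sets read separate transcripts is uncertain. Acot13, a thioesterase of another family, showed no such gap, at 11.15, 11.04, 11.16 and 11.11.

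Slc25a20, the carnitine-acylcarnitine carrier of the inner membrane, read 10.56 in WT, 10.83 and 10.76 in Id control, and 10.12 in Id cKO. The difference was -0.67 from the Id control mean (limma SE 0.14, adjusted p = 0.236) and -0.44 from WT. Crat, carnitine acetyltransferase, was low in Id cKO at 11.15, against 11.58 to 11.70 on the other 3 arrays. Mlycd, the malonyl-CoA decarboxylase that relieves inhibition of carnitine palmitoyltransferase, read 8.61 in WT, 8.38 and 8.40 in Id control and 8.07 in Id cKO. Cpt2, the inner-membrane palmitoyltransferase, was at 10.06 in Id cKO against 10.22 to 10.46. Cpt1a, the liver form of the outer-membrane enzyme, was slightly above WT in Id cKO but below both Id control arrays: WT 8.40, Id control 8.65 and 8.96, Id cKO 8.46.

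All 10 beta-oxidation enzymes compared were below WT and below both Id control arrays, with medians of -0.31 and -0.35. Acaa2, the mitochondrial 3-ketoacyl-CoA thiolase, stood out among them. It read 12.19 in WT, 12.31 and 12.27 in Id control, and 11.45 in Id cKO. The 3 other arrays spanned 0.12, and Id cKO was 0.74 below the lowest. The difference was -0.74 from WT (limma SE 0.16, adjusted p = 0.219) and -0.84 from Id control (limma SE 0.14, adjusted p = 0.217).

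The next in size were Hadh, the short-chain 3-hydroxyacyl-CoA dehydrogenase, and Decr1, a reductase needed for unsaturated fatty acids. Hadh read 11.95, 12.00, 11.89 and 11.40 in WT, Id control 1, Id control 2 and Id cKO, and Decr1 read 11.26, 11.40, 11.18 and 10.77. For both, Id cKO was the low array and the other 3 lay close together. Acads, the short-chain acyl-CoA dehydrogenase, was -0.37 from WT, and Eci1, an enoyl-CoA isomerase, -0.32. The chain-length specific dehydrogenases for longer substrates differed less. Acadm (medium-chain) was -0.30 from WT, Acadvl (very long-chain) -0.16 and Acadl (long-chain) -0.06. Hadha and Hadhb, the subunits of the trifunctional protein, were -0.22 and -0.25.

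All 3 ETF genes were below WT. Etfa, the alpha subunit, read 11.82 in WT, 11.79 and 11.53 in Id control, and 11.24 in Id cKO, a difference of -0.59 from WT (limma SE 0.20, adjusted p = 0.352). Etfb, the beta subunit, read 11.89, 12.05, 11.83 and 11.51, and Etfdh, the oxidoreductase that hands the electrons to ubiquinone, 11.99, 12.15, 12.10 and 11.63. In each case Id cKO was the lowest of the 4 arrays. Etfa was the last member past the 1.5-fold line, and Pdk2, at -0.58, fell just short of it.

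The regulators varied more between the Id control hearts. Ppara, the receptor itself, read 9.23 in WT, 8.91 and 9.36 in Id control, and 8.44 in Id cKO. It was -0.78 from WT (limma SE 0.27, adjusted p = 0.349) and -0.69 from Id control (limma SE 0.23, adjusted p = 0.343). Ppargc1a, which encodes PGC-1 alpha, read 10.49 in WT, 9.20 in Id control 1, 11.31 in Id control 2 and 9.22 in Id cKO. Id control 1 and Id cKO were thus level, and the Id control pair was 4.34-fold apart. The difference of -1.27 from WT had a limma SE of 1.02 (adjusted p = 0.661). A second Ppargc1a probe set gave -1.24, with 9.58, 8.41, 10.65 and 8.34. Esrra, the estrogen-related receptor alpha, had close values, at 8.99, 9.13, 9.07 and 8.89.

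Ucp3, the muscle uncoupling protein and a PPAR target, had the largest member difference from WT. It read 8.80 in WT, 8.18 and 8.95 in Id control, and 7.41 in Id cKO. Id cKO was below all 3, and Id control 1 was the next lowest. The difference was -1.38 from WT, which is 2.61-fold (limma SE 0.40, adjusted p = 0.299), and -1.15 from Id control (limma SE 0.35, adjusted p = 0.325).

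Pdk4, the PPAR-induced kinase that shuts off pyruvate dehydrogenase, read 12.28 in WT, 10.46 in Id control 1, 12.52 in Id control 2 and 11.28 in Id cKO. Here Id control 1 was the lowest array, and Id cKO lay between the Id control hearts. The difference of -0.99 from WT had a limma SE of 0.99 (adjusted p = 0.727). Pdk2, a second pyruvate dehydrogenase kinase, varied less, at 11.75, 11.70, 11.57 and 11.17, with Id cKO lowest.

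**Figure D2:**
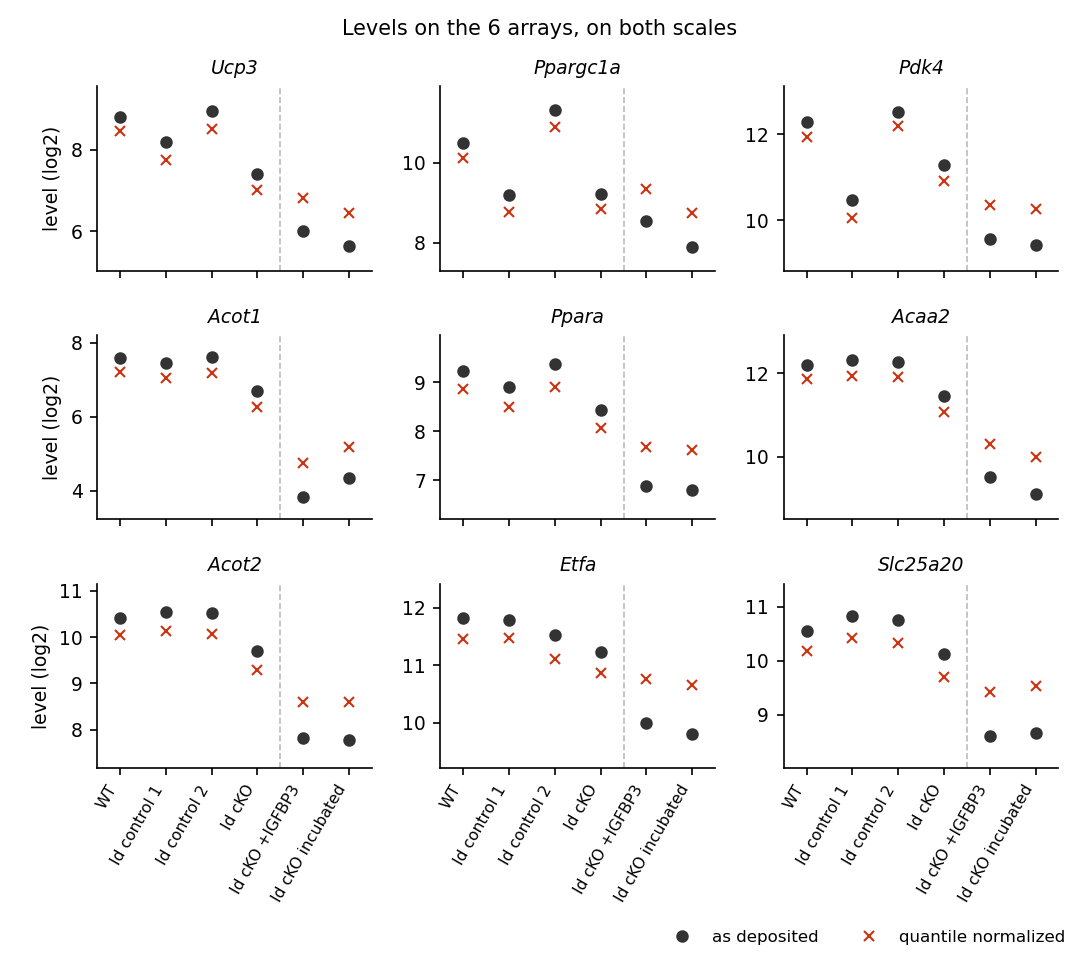
Log2 levels of 9 members on each of the 6 arrays, as deposited (dots) and after quantile normalization (crosses); the dashed line separates the first set from the incubated pair, where "Id cKO incubated" is the control-incubated heart. Acaa2, Acot1 and Acot2 are nearly level over WT and both Id control hearts and lower in Id cKO, while Ppargc1a and Pdk4 differ between the Id control hearts.

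In the Id control hearts, which differ from WT in sex as well as genotype, the members lay on both sides of WT. The median member difference was -0.00, and 0.05 over 11407 genes. Below WT on both arrays were 6 members (28.5% of genes), above WT on both 11 (45.5%), and 0 were 1.5-fold away on both (0.430% lower, 0.938% higher). In limma 0 members passed, adjusted or at an unadjusted p under 0.05 (2.43% of genes lower and 4.83% higher at the latter). The control pair, which differ in genotype and in date code, were at least 1.5-fold apart for 3 of 33 members, against 494 of 10928 genes. Pdk4 was 4.16-fold lower in Id control 1 than in Id control 2, Ppargc1a 4.34-fold and Ucp3 1.70-fold. The median absolute difference of that pair was 0.14 over the members and 0.14 over all genes.

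The lower levels reached beyond the listed members. Over all genes compared, 49.2% were below WT by any amount and 3.35% at least 1.5-fold lower. Of 20 other genes of mitochondrial fatty acid and branched-chain acyl-CoA oxidation, 20 were below WT, with a median of -0.44. At least 1.5-fold lower were 4 of them, among them Ivd (isovaleryl-CoA dehydrogenase, -0.95), Acad12 (-0.95) and Ech1 (an enoyl-CoA isomerase, -0.71). All 16 tricarboxylic acid cycle genes (median -0.23) and all 27 respiratory chain and ATP synthase genes (median -0.25) were below WT, each by less than 1.5-fold. The peroxisomal list had 11 of 15 lower (median -0.18), with the bifunctional enzyme Ehhadh at -0.92 and Pex11a at -0.61. Below both Id control arrays were 18 of 19 other mitochondrial oxidation genes compared, 16 of 16 tricarboxylic acid cycle genes and 12 of 15 peroxisomal genes. Of the respiratory chain and ATP synthase genes 24 of 27 were below both (41.9% of all genes compared). The other 3 were above the Id control mean, and the list's median was -0.20.

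Other lists were mixed, beside the 49.2% of all genes compared that were lower. Of 26 further genes of uptake, activation and droplets, 20 were lower, with 4 past 1.5-fold in each direction (3.35% of genes compared lower and 6.94% higher). Acsl6, an acyl-CoA synthetase, was at -0.83, the lipoprotein receptor Vldlr at -0.75 and the triglyceride synthase Dgat2 at -0.68, while Acsl5 was at 0.95 and G0s2, an inhibitor of the lipase ATGL, at 0.73. Of 20 nuclear receptors and coregulators 13 were lower, and Klf15, a metabolic regulator of heart, was at -1.40 (limma adjusted p = 0.132). Of 20 genes of glucose uptake and pyruvate dehydrogenase 11 were lower, near the share of all genes. Pdp2, the phosphatase that reactivates pyruvate dehydrogenase, was at -1.43, and Slc2a1, the glucose transporter GLUT1, at 0.99. Of 4 ketone body genes 3 were lower, with the carrier Slc16a7 at -1.09. In limma 0 of the 148 genes compared in these 8 lists passed the adjusted test. At an unadjusted p under 0.05 there were 26 (17.6%), against 13.1% of all genes compared.

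Cell type markers were read beside these values. The 14 cardiomyocyte markers had a median of -0.04 against WT, with 9 lower, and their mean level in Id cKO was 12.94 against 12.99 in WT. Each of the 10 endothelial markers exceeded its WT level (median 0.50), and their mean level was 9.55 against 8.98 to 9.03 on the other first-set arrays. The fibroblast markers had 4 of 8 higher, each at least 2-fold, and 4 lower, with a median of 0.64. Smooth muscle and pericyte markers were higher for 7 of 8 (median 0.28). Macrophage markers were higher for 5 of 8 (median 0.07). Blood cell markers were lower for 4 of 4 compared (median -1.30), with the platelet transcript Ppbp at -3.23 (limma adjusted p = 0.043). Adipocyte markers had a mean level of 5.52 in Id cKO and 5.64 in WT. Skeletal muscle markers were lower for 3 of 3 compared (median -0.37, lowest -1.66). Atrial markers were higher for 4 of 5 and lower for 1 (median 0.30). Against the Id control mean, endothelial markers were again higher in Id cKO, for 9 of 10 (median 0.54). Fibroblast markers were there lower for 5 of 8 (median -0.31) and macrophage markers for 7 of 8 (median -0.33). Smooth muscle and pericyte markers split into 4 higher and 4 lower (median -0.07). Skeletal muscle markers were lower for 2 of 3 (median -0.38) and atrial markers for 5 of 6 (median -1.61). In the Id control mean, 8 of 8 fibroblast markers were above WT (median 0.85). The part of these markers in the lower fatty acid genes was not tested. With each array centred on the cardiomyocyte markers, 28 of 33 members were below WT, with a median of -0.31. The median of all genes compared was 0.07 on that scale. Such centring evens the markers' mean level between arrays and cannot tell fewer cells from less RNA per cell.

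**Figure D3:**
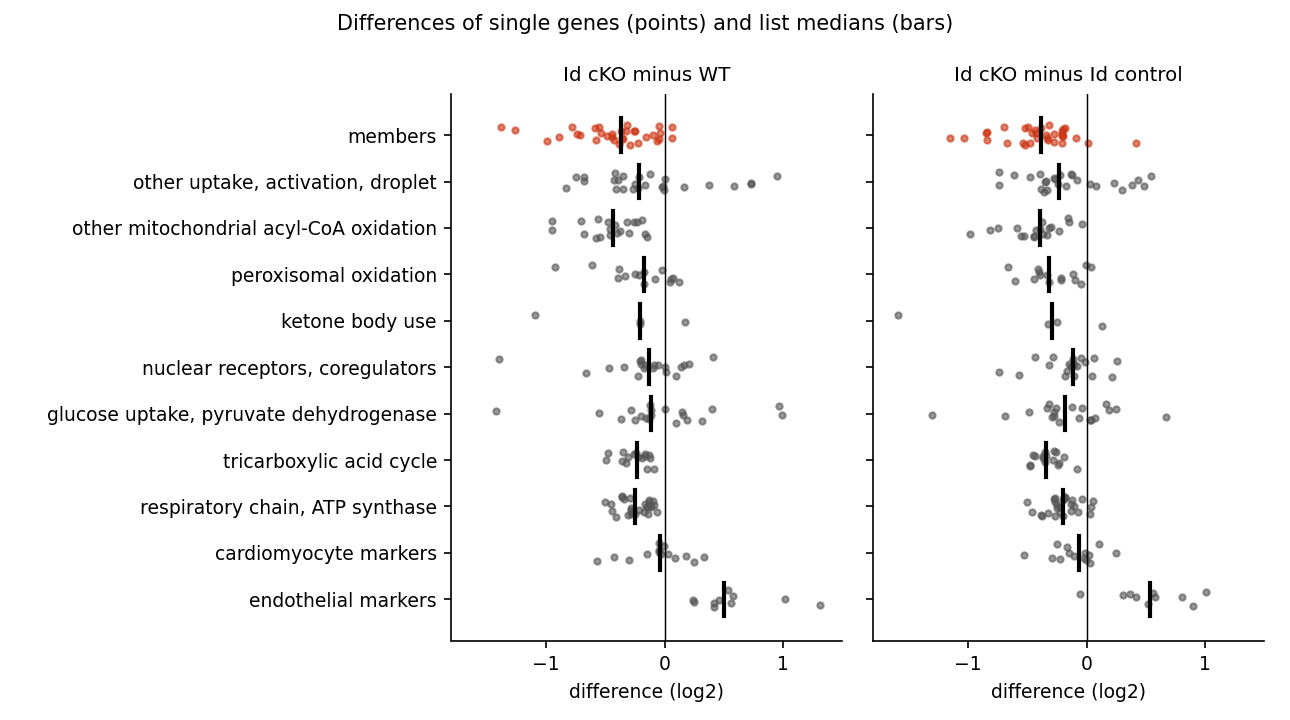
Difference of each gene (points) in Id cKO minus WT and Id cKO minus Id control (log2, as deposited), by list, with the list's median as a bar. The median bars of the members sit at -0.37 and -0.38, those of the cardiomyocyte markers at -0.04 and -0.07, and those of the endothelial markers at 0.50 and 0.54.

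The IGFBP3-incubated heart was set against the control-incubated heart on 31 members, since Acot1 and Angptl4 were below the floor on both arrays. The members were split in direction. Higher with IGFBP3 were 20 of 31 (54.3% of 7474 genes) and lower 11 (45.1%), with a median of 0.14 against 0.05 over all genes. At least 1.5-fold higher were 2 members, Cd36 and Ppargc1a (7.65% of genes), and 1 was lower, Pdk2 (6.74%), shares near the background. In limma 0 members passed the adjusted test, with 2 higher (12.7% of genes) and 2 lower (10.3%) at an unadjusted p under 0.05. That test takes its spread from the Id control pair, drawn toward that of all genes, as neither incubated condition was repeated.

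Cd36 read 11.81 with IGFBP3 and 11.19 without, a difference of 0.62 (limma SE 0.16, adjusted p = 0.184). Ppargc1a read 8.54 and 7.90, a difference of 0.64 (limma SE 1.04, adjusted p = 0.714), and its second probe set gave 0.76. Pdk2 read 9.39 and 10.11, a difference of -0.73 (limma SE 0.17, adjusted p = 0.184). For Cd36 and Ppargc1a the size depends on the scale: Cd36 was at 0.53 and Ppargc1a at 0.60 after quantile normalization, and 0.50 and 0.53 after cyclic loess. Pdk2 stayed past 1.5-fold on each scale tried.

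By role, the beta-oxidation enzymes were mostly higher with IGFBP3, 8 of 10 with a median of 0.26. Acadvl was at 0.47, Decr1 at 0.44, Acadm at 0.43 and Acaa2 at 0.40, while Acads was at -0.28 and Hadh at -0.05. On the other scales 7 to 9 of the 10 were higher. Over all genes compared 54.3% were higher. Markers of other cells moved in the same comparison. Endothelial markers were higher for 8 of 10 (median 0.23), fibroblast markers for 5 of 8 (median 0.34), smooth muscle and pericyte markers for 5 of 7 (median 0.31) and blood cell markers for 3 of 3 (median 0.44). Macrophage markers were lower for 6 of 9 (median -0.26), and cardiomyocyte markers had a median of 0.07. Their part in the member values was not tested. The genes of activation and the carnitine shuttle were mixed, with 4 of 7 lower as deposited, 5 of 7 after quantile normalization, cyclic loess or cardiomyocyte centring, and 2 of 7 after median centring. Esrra was at -0.48, Slc27a1 at -0.39 and Crat at -0.33. Ucp3 read 6.02 and 5.64, Ppara 6.89 and 6.80, Acot2 7.81 and 7.77, and Pdk4 9.56 and 9.42, all within 1.5-fold. The control-incubated Ucp3 level was under the floor of 6, so the size of its difference is not resolved.

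**Figure D4:**
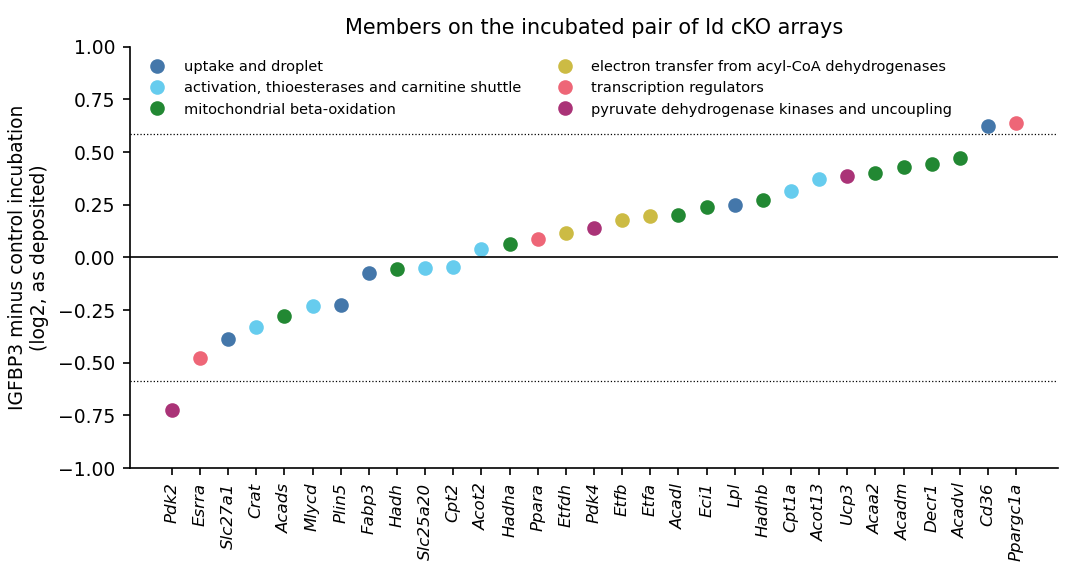
Difference of the IGFBP3-incubated minus the control-incubated Id cKO heart (log2, as deposited) for the 31 members compared, in rising order and coloured by role; dotted lines mark 1.5-fold. Pdk2 is below the lower line, Cd36 and Ppargc1a are above the upper one, and 28 members lie between.

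After quantile normalization over the 6 arrays the members were lower still in the incubated Id cKO hearts than in the first set. The control-incubated heart was below WT for 31 of 33 members (50.9% of 10317 genes). It was at least 1.5-fold lower for 24 (17.3%) and at least 2-fold lower for 13 (6.00%), and at least 1.5-fold higher for 0 (18.0%). The median difference was -0.88, against -0.01 over all genes. The median member difference from WT on this scale was 0.05 in Id control 1, -0.04 in Id control 2, -0.37 in Id cKO, -0.85 in the IGFBP3-incubated heart and -0.88 in the control-incubated heart. Both incubated hearts were below WT and both Id control hearts for 28 members (31.7% of 10769 genes), all but Cd36, Angptl4, Cpt1a, Ppargc1a and Pdk4. They were above all 3 for 0 (26.5%), and both were below Id cKO for 27 (39.3%). Between the incubated hearts and WT, genotype, incubation, date code and set of arrays cannot be told apart.

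Among members above the floor in the control-incubated heart, those furthest below WT were Ucp3 (-2.01), Acaa2 (-1.86) and Pdk4 (-1.68). Acot1 was under the floor there, so it has only a bound: with the floor of 6 in place of its level, it was at least 2.34-fold lower than WT. Normalized levels of Acaa2 were 11.85 in WT, 11.94 and 11.90 in Id control, 11.07 in Id cKO, 10.31 with IGFBP3 and 9.99 without. Those of Acot1 were 7.22, 7.05, 7.18, 6.27, 4.75 and 5.18 in the same order. The incubated arrays are the lowest for both genes, with Id cKO between them and the other 3, though the incubated Acot1 levels are under the floor and have no order. Beta-oxidation had a median of -1.08 from WT, with Decr1 at -1.42 and Eci1 at -1.39.

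The uptake and droplet genes had a smaller median difference from WT, -0.37, with 1 of 6 at least 1.5-fold lower. That was Fabp3, at 12.94 in WT and 12.22 in the control-incubated heart. Lpl was at 12.80 and 12.36, and Cd36 at 12.21 and 11.91. Cpt1a (8.05 and 8.18) and Angptl4 (6.18 and 6.37) were slightly higher in the control-incubated heart. Between the control-incubated and the unincubated Id cKO heart, which carry the same genotype label, 30 of 33 members were lower in the former (50.9% of 10239 genes). Of these 14 were at least 1.5-fold lower (13.9%) and 3 at least 2-fold (3.44%), with a median of -0.53. These counts take Acot1 at its measured level, but it was under the floor and its bound is only 1.21-fold or more. Without it 13 were at least 1.5-fold lower and 2, Acaa2 and Eci1, at least 2-fold. Incubation, sex, date code and set of arrays cannot be told apart in that difference.

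Markers of other cells moved with this difference. From WT to the control-incubated heart, on the quantile scale, all 8 fibroblast markers (median 1.29), 8 of 9 macrophage markers (median 1.13), all 7 smooth muscle and pericyte markers (median 1.04) and all 10 endothelial markers (median 0.75) were higher. The cardiomyocyte markers were lower for 13 of 14, with a median of -0.27. Their mean level was 12.75 in WT, 12.43 with IGFBP3 and 12.32 without, while the mean of the fibroblast markers was 8.22, 9.60 and 9.59. The part of these cells in the lower fatty acid genes of the incubated hearts was not tested. With the arrays centred on the cardiomyocyte markers, 31 of 33 members were below WT in the control-incubated heart, with a median of -0.80. The median of all genes compared was 0.03 on that scale. Here too, such centring cannot tell fewer cells from less RNA per cell.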

How the data were processed

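Levels are the log2 values the authors deposited in the series' value table, made with Affymetrix Expression Console and RMA per the submitters' processing notes (software versions: not given in the sources used here). Gene names came from GEO's platform annotation, which gave a single symbol to 21789 of 35557 probe sets, several to 1621 and none to 12147. Only single-symbol probe sets were used, for 19938 genes, of which 19856 were matched by Entrez ID. A gene with several probe sets (999 genes) was read from the one of highest mean. Of 286 listed symbols 264 matched by symbol, 5 by synonym and 17 not at all.

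A gene entered a comparison if either group averaged 6 or more. Differences were tested with limma 3.58.1 in R 4.3.3, with the 6 arrays as 5 groups in a single fit and Benjamini-Hochberg adjustment within each comparison. The Id control pair gave its only residual degree of freedom, so each lone array is assumed to vary like that pair, and the number of arrays limits the precision. limma's empirical Bayes step drew each gene's variance toward that of all genes, so an SE does not reflect that gene's pair alone. Fold limits were 1.5 and 2, met against both Id control arrays where that group was compared. The fit was tested on simulated data. Comparisons across the sets used quantile normalized values and no test.

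Members were shown on every array where they passed 1.5-fold in a comparison, and from other lists the 3 genes of largest difference from WT were eligible, with any past 2-fold. Members and lists were chosen with earlier results of these data known. Alternatives were other scalings, filters at none and 8, the mean of probe sets, limma-trend, a fit of the first 4 arrays and leaving out each Id control array. Promoter windows are RefSeq's (GRCm38.p6). A search for TCAAGGTCA was added after seeing the data.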

Additional observations from a re-analysis of the deposited data

How the results depend on the processing

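Each member past 1.5-fold in a comparison, as reported, kept its sign there under the alternatives run. Pdk4 and Ppargc1a, not past it against both Id control arrays, were -1.24 and -2.09 from Id control 2 alone and 0.82 and 0.02 from Id control 1 alone. Over all alternatives, 191 alternative values of the main counts and medians stayed near the reported ones while 23 moved. The lower member counts in Id cKO kept their direction on each scaling tried: 27 to 31 of 33 below WT and 30 to 32 below the Id control mean. The member median of Id cKO minus Id control was -0.29 with cardiomyocyte centring. The smallest limma adjusted p of any member over the settings was 0.125 in Id cKO minus WT, 0.135 in Id cKO minus Id control, 0.410 in Id control minus WT and 0.173 in the incubated pair.

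Members below WT on both Id control arrays were 2 with median centring (which moved the median of all genes to 0.17) and 10 with cardiomyocyte centring. With 1 Id control array left out they were 14 either way, those at least 1.5-fold lower were 0 to 3 (1.63% and 1.19% of genes), and those higher 1 (5.59% and 1.99%). Against Id cKO, leaving out an array gave 8 lower, and 0 to 2 higher. In the incubated pair, members at least 1.5-fold higher were 1 after quantile normalization and 0 after cyclic loess or cardiomyocyte centring. Its median was 0.025 after either of the last, and 7 members were lower with the filter at 8. For the control-incubated heart the median from WT was -0.71 with median centring, and that from Id cKO was -0.40 with median centring and -0.43 with loess. DR1 windows were 0 with 1 mismatch (0.554% of all windows) and 13 with 3 (39.4%, against 24.6%), and TCAAGGTCA was in 0 (0.423%). The causes were not tested.

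All genes past limma's adjusted test in Id cKO minus WT were 4, 8 with median centring, 15 with loess, 24 with cardiomyocyte centring and 14 with the filter at 8. In Id cKO minus Id control they were 2, and 11 with cardiomyocyte centring. limma was not run without an Id control array, since no residual degree of freedom is left. No paired analysis was possible because the labels carry no replicate numbers.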
